A study of Mus musculus with 48 samples.

Results

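The transcription factors that set the identity of an intestinal segment were followed along the small intestine of mice killed 9 days after Roux-en-Y gastric bypass (RYGB) or sham surgery. The group was chosen by gene symbol and held 8 genes, Pdx1, Onecut2, Gata4, Gata6, Cdx1, Cdx2, Hnf4a and Hnf4g, each with 1 Ensembl identifier. All 8 were listed in the duodenum and jejunum tables and 7 in the ileum table, out of 11225 genes listed in any of the 3 intestinal tables. Pdx1 was the member that the ileum table did not list, and every gene listed there reached 1 CPM (counts scaled to a library total of 1e6) in at least 5 of the 10 ileum libraries.

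RYGB leads food from a stomach pouch straight into the jejunum and so leaves the duodenum out of its path. All mice of the groups were male C57Bl6 mice made obese by diet, and both groups received a liquid elemental diet for 9 days after the operation. The labels add a return to the high fat diet, and they state that mice were killed after fasting. Villi were scraped from the gut after a short time in cold EDTA, which gave 3 RYGB and 4 sham libraries of the duodenum, 3 and 4 of the jejunum, and 5 and 5 of the ileum. The labels do not say which segments came from the same mouse.

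The epithelium of the small intestine changes its work along its length, and transcription factors with overlapping territories keep these differences in the adult. Pdx1, a homeobox factor also needed for the pancreas, and Onecut2, a cut-homeobox factor, mark the upper end, Gata4 is known for the duodenum and jejunum and fades towards the end of the ileum, and the related Gata6 is found more widely. Cdx1 and Cdx2 are caudal-type homeobox factors that maintain intestinal against stomach character, and Hnf4a and Hnf4g are closely related nuclear receptors that drive the genes of absorptive enterocytes.

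The genes lay on 5 chromosomes of the mouse genome GRCm38 (GENCODE M21 annotation). Pdx1 (chr5:147269959-147275848, plus strand) and Cdx2 (chr5:147300805-147307270, minus strand) were neighbours. Hnf4a was at chr2:163506808-163572910 and Hnf4g at chr3:3508030-3658052, both on the plus strand, and Gata4 was at chr14:63198922-63271692 on the minus strand. The other factors, Gata6, Cdx1 and Onecut2, shared a chromosome. The exons of Gata6 shared 93 bases with an exon of 1010001N08Rik on the opposite strand, and whether the counting used the strand is not given in the sources used here, so reads of these bases cannot be told apart.

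To show the sequence that lies in front of the genes, the bases before the RefSeq start that fall in no annotated exon are printed for Hnf4a, Pdx1 and Cdx2, 3 of the 8 factors (build GRCm38.p6, 5′ to 3′ on the strand of the gene). Capitals mark matches to 4 motifs searched on both strands, GATAA for GATA factors, TTTATNG for CDX factors, CAAAGTCCA for HNF4 and ATCAAT for ONECUT factors.
Hnf4a, chr2:163506607-163506807: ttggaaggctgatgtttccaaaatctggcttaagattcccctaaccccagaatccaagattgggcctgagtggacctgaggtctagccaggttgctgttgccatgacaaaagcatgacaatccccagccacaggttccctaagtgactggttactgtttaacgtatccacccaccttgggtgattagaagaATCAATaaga
Pdx1, chr5:147269847-147269958: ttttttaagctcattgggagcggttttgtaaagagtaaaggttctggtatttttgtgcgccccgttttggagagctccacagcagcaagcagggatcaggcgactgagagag
Cdx2, chr5:147307271-147307499: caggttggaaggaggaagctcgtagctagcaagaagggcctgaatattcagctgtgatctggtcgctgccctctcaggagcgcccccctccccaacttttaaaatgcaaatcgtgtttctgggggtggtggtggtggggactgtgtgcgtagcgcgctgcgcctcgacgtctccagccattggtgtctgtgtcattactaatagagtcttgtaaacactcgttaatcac
The 201 bases of Hnf4a held 1 match, to the ONECUT letters, which 5.81% of all 32851 promoters held in a stretch of the same length. GATAA was in 19.4%, TTTATNG in 7.7% and CAAAGTCCA in 0.295% of those stretches, and neither the 112 bases of Pdx1 nor the 229 bases of Cdx2 held any of the 4 motifs.

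The libraries were sequenced to a depth that the tables do not give, and CPM was deposited to 1 decimal. The epithelial markers Epcam, Krt8, Krt19, Krt20, Cdh1 and Vil1 were listed in every segment, and none of the 8 pancreatic acinar, 6 stomach and 2 Brunner gland markers was listed in any. The ileum libraries held low levels of the genes that define the end of the ileum. Fabp6, the ileal bile acid binding protein, ranged from 0.0 to 22.9 CPM in sham and 0.1 to 50.5 CPM in RYGB, and Slc10a2, the ileal bile acid carrier, from 0.2 to 2.5 and 1.6 to 53.7 CPM. Each segment was a table of its own. The 7 duodenal libraries shared a lane, the ileal RYGB libraries were all in lane 1 and the ileal sham libraries in lanes 2 and 3, so in the ileum lane and surgery cannot be told apart.

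**Figure D1:**
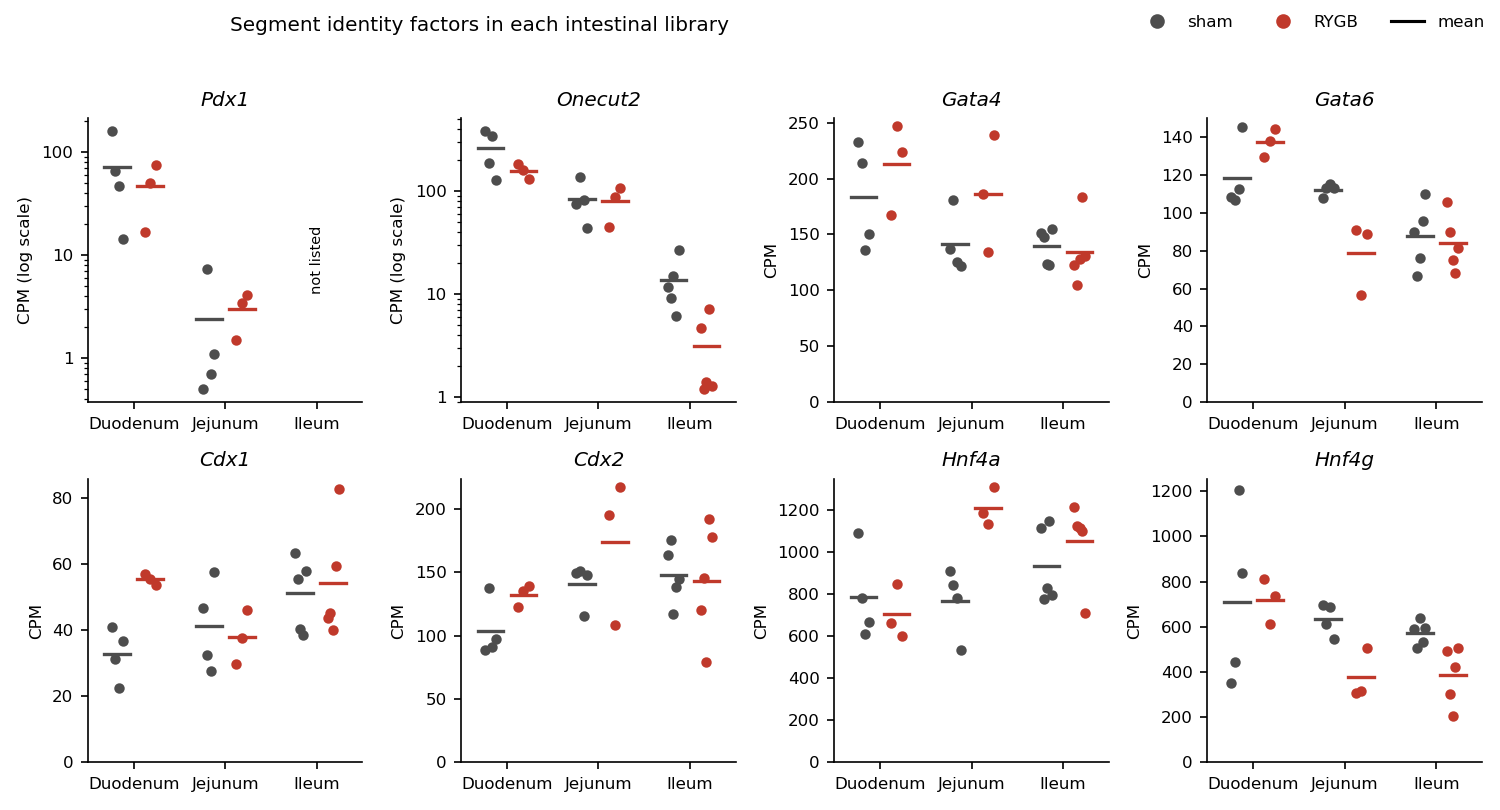
Level of each factor in CPM in the 24 intestinal libraries, with a log axis for Pdx1 and Onecut2 and a linear axis from 0 for the others. Grey points are sham and red points RYGB libraries, and bars are group means. Onecut2 steps down from duodenum to jejunum to ileum, Pdx1 steps down from duodenum to jejunum and has no ileal values, and the other factors stay within a few fold in all segments.

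Of the 8 factors, Pdx1 and Onecut2 showed the largest steps between sham segments, and Pdx1 had no values in the ileum. In the sham duodenum Pdx1 was at 159.9, 65.8, 47.3 and 14.5 CPM, and in the sham jejunum at 0.5, 7.4, 0.7 and 1.1 CPM. The lowest duodenal library was above the highest jejunal one. Pdx1 was 20.6-fold higher in the sham duodenum (log2 difference 4.36 ± 0.68 SE, limma adjusted p = 0.0179), where 0.682% of all genes tested were called between these segments. It was the only member of 8 that passed, and the call was lost without duodenum sham 1 or 3 or without jejunum sham 1, 3 or 4 (adjusted p up to 0.0873). Fold changes and log2 differences are on the log2(CPM + 1) scale throughout, and a segment cannot be told apart from the table and run in which it was processed.

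Onecut2 stepped down through all segments. It was at 382.1, 186.7, 345.2 and 130 CPM in the sham duodenum, at 75.3, 138, 82.4 and 44.5 CPM in the sham jejunum, and at 11.9, 9.2, 15.2, 6.2 and 26.9 CPM in the sham ileum. Jejunum and ileum did not overlap, and duodenum and jejunum overlapped by 1 library. The sham jejunum was 5.95-fold above the sham ileum (log2 difference 2.57 ± 0.45 SE, limma adjusted p = 0.00801), and 5.29% of all genes were called there against 1 of the 7 factors. Without jejunum sham 2 the adjusted p was 0.0548. The sham duodenum was 17.9-fold above the sham ileum (log2 difference 4.16 ± 0.44 SE, adjusted p = 7.83e-06), while duodenum against jejunum gave 3.00-fold and an adjusted p of 0.0694.

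Between the sham duodenum and the sham ileum 30.8% of all genes were called, and 3 of the 7 factors. Besides Onecut2, Gata6 was higher in the duodenum by a log2 difference of 0.44 ± 0.15 SE (limma adjusted p = 0.0370) and Cdx1 was lower by a log2 difference of −0.63 ± 0.21 SE (adjusted p = 0.0333). Their ranges overlapped between these segments, and the Gata6 call was lost when libraries were scaled by their median ratio (adjusted p = 0.0712). Left-out libraries moved the adjusted p to between 0.0174 and 0.103 for Gata6, and to between 0.0154 and 0.124 for Cdx1. The highest values came without duodenum sham 4 for Gata6 and without duodenum sham 3 for Cdx1.

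Gata4, known to fade towards the end of the ileum, stayed near its jejunal level in the sham ileum libraries. Its mean was 183 ± 47.5 CPM (SD, n = 4) in the sham duodenum, 142 ± 27.2 CPM (n = 4) in the sham jejunum and 139.8 ± 15.7 CPM (n = 5) in the sham ileum, and its ranges overlapped in all 3. The log2 difference of jejunum against ileum was 0.0067 with a 95% confidence interval from −0.37 to 0.38. The sham ileum libraries held at most 22.9 CPM of Fabp6 and 2.5 CPM of Slc10a2, and the part of the sampled position was not tested. Cdx2 ran the other way, with 104 ± 23.1, 141 ± 17.1 and 148 ± 22.6 CPM, and neither of its steps nor the whole span passed the test (duodenum against ileum log2 difference −0.52, limma adjusted p = 0.0713). The whole span of Cdx2 did pass in 2 of 17 fits that left out 1 library (limma adjusted p from 0.0208 to 0.172).

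Per kilobase of exon, Hnf4g and Hnf4a led in every segment. In the sham duodenum the mean level was 269.9 CPM per kb for Hnf4g and 164 for Hnf4a, ahead of Gata4 at 47.0, Cdx2 at 45.8, Pdx1 at 33.3, Cdx1 at 18.8, Gata6 at 18.2 and Onecut2 at 16.1. The ranges of Hnf4g and Hnf4a overlapped in the sham duodenum and ileum, but in the sham jejunum Hnf4g (208 to 265 CPM per kb) was above Hnf4a (111 to 189). By mean, Gata4 and Cdx2 came next in every segment. In the sham duodenum their ranges overlapped each other and that of Pdx1 (6.72 to 74.1 CPM per kb). The range of Gata4 also overlapped that of Cdx1 in the sham jejunum and ileum. In the sham jejunum Pdx1 was last at 1.12, and in the sham ileum Onecut2 was last at 0.855 CPM per kb.

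**Figure D2:**
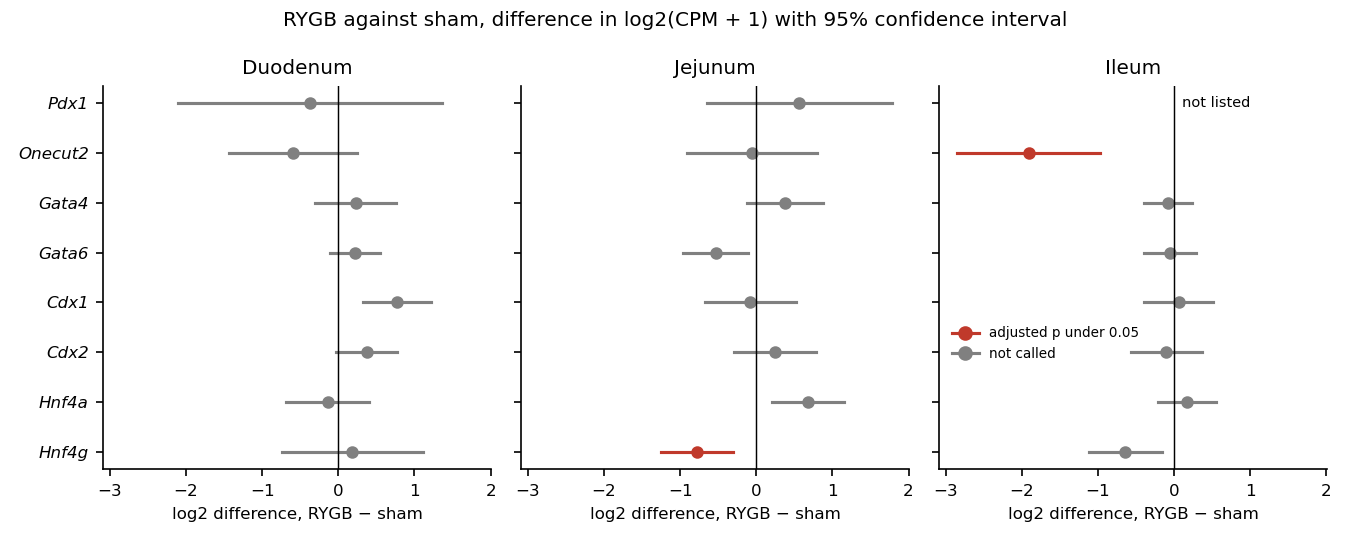
Difference between RYGB and sham in log2(CPM + 1) for each factor in each segment, with the 95% confidence interval from limma. Red marks an adjusted p under 0.05, which only Hnf4g in the jejunum and Onecut2 in the ileum reached.

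RYGB was compared with sham in each segment to ask whether a bypassed duodenum, a jejunum that receives food directly and the ileum keep their factors. In the duodenum 0 of 8 factors passed the limma test, 1 had an unadjusted p under 0.05, and 0.00922% of all genes were called. That 1 factor was Cdx1, at 56.9, 55.6 and 53.6 CPM in RYGB and 40.9, 31.4, 22.6 and 36.6 CPM in sham. The groups did not overlap, as for 15.6% of all genes in the duodenum, and the log2 difference was 0.77 ± 0.20 SE (adjusted p = 0.145). The median difference of all genes was 0.12 there and 0.0033 after median-ratio scaling, under which Cdx1 differed by 0.64. Over fits without 1 library its adjusted p ran from 0.0553 to 0.418.

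Cdx2 and the GATA factors lay higher on average in the bypassed duodenum, without passing the test. Cdx2 was at 122, 135 and 139 CPM in RYGB and 88.5, 137.7, 90.8 and 97.1 CPM in sham (log2 difference 0.37, 95% confidence interval −0.03 to 0.77). The interval was −0.30 to 0.76 for Gata4 and −0.11 to 0.55 for Gata6. Crypt and cycling cell markers, of which 6 of 10 were listed and Lgr5 and Ascl2 were not, summed to 79.6 to 189.7 CPM in the RYGB duodenum and 41.4 to 92.3 CPM in sham. Immune markers, 3 of 7 listed and the B cell marker Cd79a not, summed to 28.4 to 75.2 and 11.9 to 29.9 CPM. Villus enterocyte markers, 8 of 8 listed, summed to 33493 to 43117 CPM in the RYGB duodenum and 49137 to 64110.1 CPM in sham, with no overlap. The part of these cells in the Cdx1 values was not tested, and in bulk villi fewer cells of a type and less RNA per cell cannot be told apart.

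Pdx1 varied more between libraries of the same group than between the groups. It was at 16.9, 50.2 and 75 CPM in the RYGB duodenum, within the sham span of 14.5 to 159.9 CPM, and the log2 difference of −0.37 had a 95% confidence interval from −2.11 to 1.37. The spread of Pdx1 among the sham libraries (SD 1.40 on the log2 scale) was larger than that of 98.7% of genes, against a median SD of 0.26. Onecut2 in the duodenum was at 186, 159.5 and 131 CPM in RYGB and differed by −0.60 ± 0.37 SE (limma adjusted p = 0.405).

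Pdx1 was set beside other genes of the duodenal and jejunal libraries. Over the 14 duodenal and jejunal libraries the genes most like Pdx1 by Pearson correlation of log2(CPM + 1) were Zdhhc2 (0.98), Slc40a1 (0.97), the iron exporter ferroportin, and Akp3 (0.97), an intestinal alkaline phosphatase. They were picked by this value from 10848 genes, and the step from duodenum to jejunum is part of it. The duodenal libraries with the lowest Pdx1, RYGB 1 and sham 4, held 25.2 and 26.9 CPM of Slc40a1. Sham 1 with the highest Pdx1 held 2468 CPM. Between these the orders differed. Sham 3 held 856 CPM of Slc40a1 and 47.3 CPM of Pdx1, and RYGB 3 held 409 and 75 CPM. Among the sham duodena Lct, which encodes lactase, ran against Pdx1, at 149 CPM in sham 1 and 4682 CPM in sham 4. The RYGB duodena did not show this, since Lct was at 2586 CPM in RYGB 1 with the least Pdx1 and at 3971 and 3235 CPM in RYGB 2 and 3. Sham 1, sham 2 and RYGB 3, the libraries with the most Pdx1, also had 2.93%, 7.49% and 2.62% of their counts in genes that the table does not list, against at most 0.373% in the other duodenal libraries. Without these 3 libraries the log2 difference of Pdx1 was 0.15 and again no factor passed, and their part in the spread of Pdx1 was not tested.

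**Figure D3:**
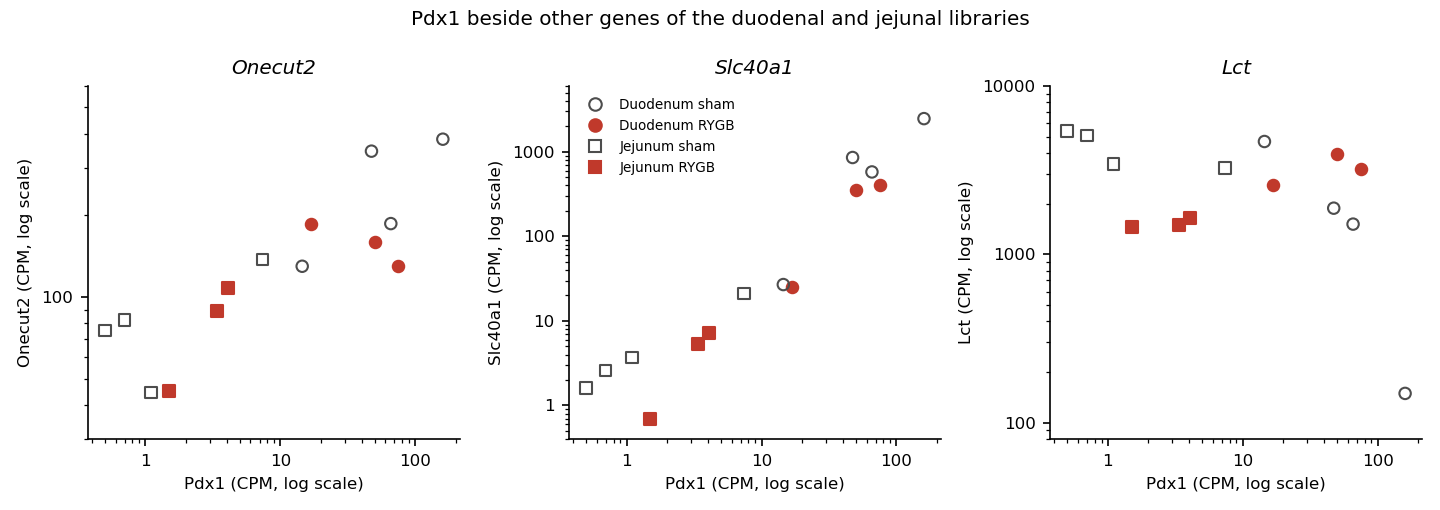
Onecut2, Slc40a1 and Lct against Pdx1 in the 14 duodenal and jejunal libraries, in CPM on log axes. Circles are duodenum, squares jejunum, open sham and filled RYGB. The 2 duodenal libraries with Pdx1 under 20 CPM sit with Slc40a1 near 26 CPM, far below the other duodenal libraries and above the jejunal ones.

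In the jejunum Hnf4g fell, and its relative Hnf4a lay on the other side of 0. Hnf4g was at 308, 318 and 509 CPM in RYGB and 697, 611, 686 and 546 CPM in sham, with no overlap. It was 1.72-fold lower after RYGB (log2 difference −0.78 ± 0.21 SE, limma adjusted p = 0.0454) and was the 1 factor of 8 called, where 9.81% of all genes were called. Hnf4a was at 1187, 1133 and 1313 CPM in RYGB and 912, 844, 783 and 538 CPM in sham, again with no overlap, and its log2 difference of 0.68 ± 0.21 SE gave an adjusted p of 0.0712. The Hnf4g call stood close to the threshold. It was lost in 6 of 7 fits that left out 1 library, all but the fit without RYGB 3, and in lane 1 alone, which leaves out RYGB 2 (log2 difference −0.67, adjusted p = 0.178).

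The ratio of both genes within a library, unlike a level, does not depend on scaling. Hnf4a CPM divided by Hnf4g CPM was 3.85, 3.57 and 2.58 in the RYGB jejunum and 1.31, 1.38, 1.14 and 0.984 in the sham jejunum. The ratio, chosen after the values were seen and therefore not tested, did not overlap between the groups. It could not have overlapped, since all RYGB values lay above sham for Hnf4a and below sham for Hnf4g. The sum of both genes did overlap, with 1589 ± 202 CPM (SD, n = 3) in RYGB and 1404 ± 224 CPM (n = 4) in sham. Villus enterocyte markers, 8 of 8 listed, summed to 34049 to 61940.5 CPM in the RYGB jejunum and 65377 to 89243 CPM in sham. Of these markers Apoa4 alone averaged 15424.5 CPM in RYGB and 40878 CPM in sham. Epithelial markers, 6 of 6 listed, lay the other way, at 11711.7 to 14428.8 CPM in RYGB and 8971.1 to 10655.1 CPM in sham. Paneth markers, 3 of 5 listed and Defa17 and Defa24 not, summed to 62.3 to 128.6 and 7.9 to 28.9 CPM, and tuft markers, 4 of 5 listed and Il25 not, to 96.1 to 257.2 and 35.5 to 60.1 CPM. Of the tuft markers Trpm5 alone was called (log2 difference 2.60), and Pou2f3 differed by 0.042, Avil by 0.34 and Dclk1 by 0.42. The part of these cells in the jejunal factor values was not tested.

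**Figure D4:**
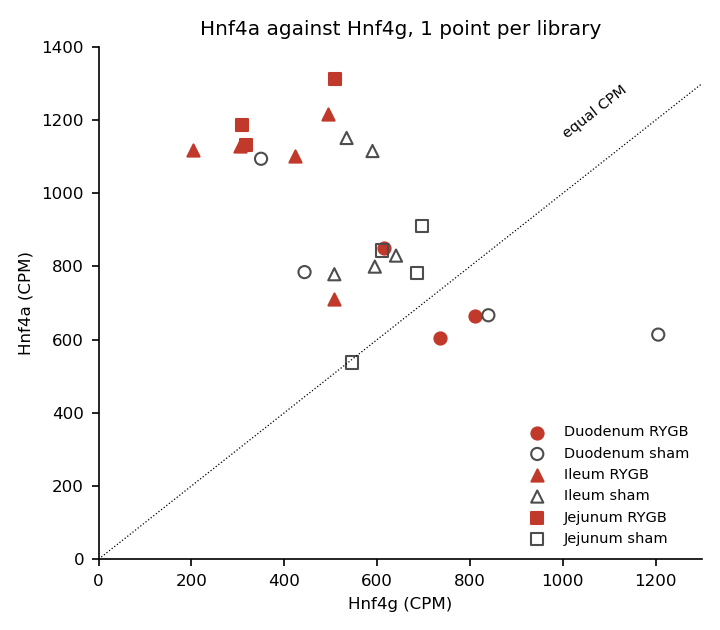
Hnf4a against Hnf4g in CPM, 1 point for each of the 24 libraries, with a dotted line at equal CPM. The 3 jejunal RYGB libraries sit at 1133 to 1313 CPM of Hnf4a and 308 to 509 CPM of Hnf4g, above and to the left of the 4 jejunal sham libraries.

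Gata6 was the other factor whose jejunal groups did not overlap, which held for 3 of 8 factors and for 22.2% of all genes. It was at 90.9, 56.8 and 89 CPM in RYGB and 108, 113, 115 and 113 CPM in sham (log2 difference −0.53 ± 0.19 SE, limma adjusted p = 0.113). The sham libraries differed less from each other (SD 0.039 on the log2 scale) than those of nearly all genes. Gata4 in the same libraries was at 187, 134 and 239 CPM in RYGB and 137, 181, 126 and 122 CPM in sham, with an interval of −0.13 to 0.88 for its log2 difference. Cdx1, Cdx2, Onecut2 and Pdx1 overlapped between the groups, and the intervals of their log2 differences were −0.68 to 0.52, −0.29 to 0.79, −0.91 to 0.80 and −0.65 to 1.78.

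In the ileum Onecut2 fell further from its already low level. It was at 4.7, 1.2, 1.4, 7.2 and 1.3 CPM in RYGB and 11.9, 9.2, 15.2, 6.2 and 26.9 CPM in sham, and RYGB 4 lay inside the sham range. The level was 3.76-fold lower after RYGB (log2 difference −1.91 ± 0.43 SE, limma adjusted p = 0.0235), 1 factor of 7 called where 7.97% of all genes were called. None of the 7 factors had groups without overlap, which 9.34% of all genes had. The call was lost without RYGB 2 or sham 1, 3 or 5 (adjusted p up to 0.0621). Of all genes called in the ileum 28.7% were higher after RYGB, and 52.6% after median-ratio scaling, under which Onecut2 differed by −1.83.

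Slc10a2 and Fabp6, bile acid genes of the lower gut, lay the other way from Onecut2 in the same libraries. Slc10a2 rose after RYGB by a log2 difference of 2.30 ± 0.64 SE (limma adjusted p = 0.0474), and it was lowest in RYGB 4 (1.6 CPM), the RYGB library with the most Onecut2 (7.2 CPM). Fabp6 was at 0.1 CPM in RYGB 4 and at 29.0 to 50.5 CPM in the other RYGB libraries. Immune markers summed to 5.4 to 18.9 CPM in RYGB and 17.2 to 43.9 CPM in sham, with Cd3e down by −1.61 and Ptprc by −1.37. In the jejunum they summed to 8 to 16.9 and 22.9 to 30.8 CPM, with Cd3e down by −1.58 and Ptprc by −0.97. The third listed marker, Lyz2, was not called and lay the other way, at 0.12 in the ileum and 0.35 in the jejunum. The part of the sampled position and of these cells in the factor values was not tested.

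Hnf4g in the ileum lay in the same direction as in the jejunum, without passing the test. It was at 494, 305, 204, 424 and 508 CPM in RYGB and 590, 508, 641, 534 and 595 CPM in sham, so that the groups met at 508 CPM (log2 difference −0.64 ± 0.22 SE, limma adjusted p = 0.0918). The ratio of Hnf4a to Hnf4g was 1.40 to 5.49 in RYGB and 1.29 to 2.16 in sham, and 4 of 5 RYGB libraries lay above all sham libraries. Hnf4a itself was at 1056 ± 197 CPM (SD, n = 5) in RYGB and 935 ± 182 CPM (n = 5) in sham. In the duodenum the ratio was 0.820 to 1.39 in RYGB and 0.509 to 3.13 in sham. For Gata4, Gata6, Cdx1 and Cdx2 in the ileum the intervals of the log2 difference were −0.39 to 0.23, −0.39 to 0.28, −0.39 to 0.51 and −0.57 to 0.37.

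Whether surgery acted differently in 2 segments was tested by the difference of its effects. None of the factors passed in limma for duodenum against jejunum (0 of 8, 5.26% of all genes called), jejunum against ileum (0 of 7, 1.22%) or duodenum against ileum (0 of 7, 12.1%). At an unadjusted p under 0.05 there were 3, 1 and 1 factors. The 3 were Gata6 (difference of log2 differences 0.75 ± 0.23 SE, adjusted p = 0.0781), Cdx1 (0.85 ± 0.35) and Hnf4a (−0.82 ± 0.32), beside a median of 0.17 over all genes. The others were Onecut2 for jejunum against ileum (1.86 ± 0.66) and Cdx1 for duodenum against ileum (0.71 ± 0.31, beside a median of 0.22). Of the genes called, 73.7% were positive for duodenum against jejunum and 77.9% for duodenum against ileum, and 52.4% and 43.3% after median-ratio scaling, under which Gata6 gave 0.56 and Cdx1 0.66 and 0.48. The lower level of Onecut2 in the ileum and of Hnf4g in the jejunum was therefore not shown to be particular to these segments.

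Other transcription factors of the epithelium, 24 genes chosen for this role, mostly did not pass. Of those tested, 0 of 22 were called in the duodenum, 2 of 22 in the jejunum and 0 of 21 in the ileum, with median log2 differences of 0.32, 0.01 and −0.05 beside 0.12, −0.04 and −0.09 over all genes. The shares of all genes called were 0.00922%, 9.81% and 7.97%, so the jejunal count was near its background. The jejunal calls were Foxa1, a pioneer factor (log2 difference 1.59 ± 0.38 SE, limma adjusted p = 0.0277), and Tcf7l2, a Wnt effector (0.98 ± 0.22, adjusted p = 0.0245), both higher. Gata5, the third intestinal GATA factor, was at 103 to 141 CPM in the RYGB duodenum and 51.9 to 107.9 CPM in sham (log2 difference 0.80, adjusted p = 0.176). Along the sham gut 1 of 21 was higher and 8 of 21 lower in the duodenum than in the ileum, where 30.8% of all genes were called. Osr2, which ran against Onecut2, was lower by −4.54 and Gata5 by −1.03.

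Genes known to be linked to these factors were counted in the same fits. Of 12 genes linked to HNF4, which encode lipid carriers, brush border proteins and enzymes of the enterocyte, 0 passed in the duodenum, 1 fell in the jejunum and 0 passed in the ileum. The 1 gene was Treh, which encodes trehalase (log2 difference −0.89 ± 0.18 SE, limma adjusted p = 0.0156). The median log2 difference of the 12 genes in the jejunum was −0.29, beside −0.04 over all genes. Of all genes, 0.00922% were called in the duodenum, 9.81% in the jejunum and 7.97% in the ileum. The jejunal count of 1 of 12 was thus near its background. Of 5 genes linked to CDX2, Mep1a, a brush border metalloprotease, fell in the jejunum (−1.69 ± 0.25, adjusted p = 0.00341) and none passed in the duodenum or ileum. Treh and Mep1a were also among the villus enterocyte markers, so these lists are not independent of each other.

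Genes listed as proximal or distal enterocyte genes for their known territory also changed in the jejunum and ileum, where 9.81% and 7.97% of all genes were called. In the jejunum 4 of 11 proximal genes fell and none rose, Apoa4 (−1.47, also a villus enterocyte marker), Lct (−1.45), Abcg8 (−1.25) and Abcg5 (−0.99). These 4 were not higher in the duodenum than in the jejunum of the sham mice, where the median log2 difference of the list was −0.26. Lct averaged 2056 CPM in the sham duodenum, 4294 in the jejunum and 5279 in the ileum, and it was lower in the duodenum than in the ileum (limma adjusted p = 0.0150). Of 5 distal genes Slc51b, a basolateral bile acid carrier subunit, rose by 0.90 and Cubn, the cobalamin receptor subunit of the ileum, fell by 5.69 on the log2 scale, from 342 to 893 CPM in sham to 5 to 37.8 CPM in RYGB. In the ileum Fabp1 rose (1.25) and Npc1l1 (−0.87) and Lct (−0.68) fell among 11 proximal genes. Of 7 distal genes Slc10a2 and Slc51b (0.74) rose and Cubn fell by 1.16. None of the 11 proximal and 4 distal genes tested passed in the duodenum, where only 0.00922% of all genes were called.

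The genes whose levels were most like those of a factor over all 24 intestinal libraries differed from factor to factor. Onecut2 was most like Prdm16 (Pearson correlation of log2(CPM + 1) 0.95), Reg4 (0.93) and Tigd2 (0.93). Gata4 was most like Sav1 (0.85), Ldhd (0.84) and Zfpm1 (0.84), and Zfpm1 encodes a cofactor of GATA proteins. The highest value was 0.81 for Gata6 (Bmp2k), 0.87 for Cdx1 (Ranbp3), 0.75 for Cdx2 (Tmem51), 0.89 for Hnf4a (Capn5) and 0.90 for Hnf4g (Txlng). These values describe libraries that share segment, lane and surgery.

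Outside the gut few of the factors were listed. The liver table listed Hnf4a (578 ± 41.4 CPM in sham, SD, n = 4), Onecut2 (122 ± 11.4), Gata4 (19.0 ± 3.10) and Gata6 (6.42 ± 0.780), the fat table listed Gata6 alone (11.5 ± 3.67 CPM), and the muscle table listed none. Pdx1, Cdx1, Cdx2 and Hnf4g were thus listed in the intestine only.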

How the data were processed

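Poly(A) RNA libraries (stranded kit) of 48 samples were deposited, and the 24 of the intestine were tested. The authors deposited 1 table for each tissue in CPM, a unit taken from the values, whose columns summed to between 925122 and 998777 with 1 line kept for each gene. Some deposited tables held other lines, and repeated lines were counted once and 12 damaged liver lines left out. The submitters' processing notes name GRCm38 and HTSeq. The aligner is not given in the sources used here. Values to 1 decimal do not give single reads, so depth is unknown and no counting interval was computed.

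RYGB was compared with sham within each table, and segments over 4 groups of 2 joined tables, by limma 3.58.1 (R 4.3.3, empirical Bayes with a trend) on log2(CPM + 1). Genes averaging 1 CPM or more entered. Adjusted p values (Benjamini-Hochberg, all genes of a fit) under 0.05 were called. The fits were tested on simulated data. Libraries are separate samples in the labels, which name no mice, so p values measure the spread between samples, which may be technical. The genes named were the 8 factors, up to 3 called genes a direction from each list (more where a count of 5 or fewer needed them) and the 3 genes most like each factor. Pdx1 was compared over 14 libraries. Gata5, Fabp6, the genes set beside Pdx1 and called markers were named after their values were seen. Values of some list genes are not reported here. The members and lists were chosen with earlier results of these data known. Exon lengths came from GENCODE M21 and promoters from RefSeq. Tables and figures were made with Python 3.11.15, pandas 2.3.3, numpy 2.4.6 and matplotlib 3.10.9.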

Additional observations from a re-analysis of the deposited data

Results flagged for a closer look

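In a group of 4 to 10 libraries, the gap between the most extreme library and its neighbour was set against the range of the group on the log2(CPM + 1) scale (Dixon's ratio). Of 30 groups of a factor and a surgery 2 stood out, where chance gives about 1 in 20, or 1.5 groups. Cdx2 in jejunum sham 3 (115 CPM, the others 148 to 151 CPM) had a ratio of 0.911. Hnf4a in ileum RYGB 5 (712 CPM, the others 1101 to 1218 CPM) had a ratio of 0.813, and without that library the log2 difference of Hnf4a in the ileum was 0.31. Both libraries were kept.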

How the results depend on the processing

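The alternatives gave 803 values for 46 results, of which 712 kept their direction and their side of the threshold. The lane alternative applied to the jejunum alone. The number of factors called in the jejunum went from 1 to 0 without the trend and in lane 1 alone, and in the ileum from 1 to 0 with a minimum mean of 10 CPM, where Onecut2 was not tested, and with the replicate number as a block (Onecut2 adjusted p = 0.0575). The replicate block made Cdx1 differ by 0.10 in the jejunum and changed no other call. Correlations of deviations between libraries of the same number ran from −0.28 to 0.28, so the numbers were not taken to pair mice. Over fits that left out 1 library, the number called was 0 to 1 in the jejunum, in the ileum, for sham jejunum against ileum and for the effects of surgery in the duodenum against the jejunum and against the ileum. It was 0 to 2 for sham duodenum against jejunum and 1 to 4 for sham duodenum against ileum. Over all genes, median-ratio scaling moved the number called from 856 to 1285 in the ileum and from 559 to 883 between sham jejunum and ileum.

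Factors near 0 changed sign. Median-ratio scaling gave 0.011 for Onecut2 in the jejunum, and 0.051 for Gata6, 0.026 for Gata4 and 0.0036 for Cdx2 in the ileum. Without the 3 duodenal libraries with many counts not listed, an alternative chosen after seeing the data, Hnf4g differed by −0.51, Hnf4a by 0.23 and Pdx1 by 0.15. With 1 library left out the log2 differences ranged in the duodenum from −0.97 to 0.23 for Pdx1, −0.10 to 0.50 for Hnf4g and −0.28 to 0.030 for Hnf4a. In the jejunum they ranged from −0.25 to 0.10 for Cdx1 and −0.32 to 0.31 for Onecut2, and in the ileum from −0.20 to 0.0015 for Gata4, −0.22 to 0.094 for Cdx2, −0.15 to 0.032 for Gata6 and −0.10 to 0.15 for Cdx1. The causes were not tested. Unknown depth and groups of 3 to 5 limit what could be detected.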
